A study of Marchantia polymorpha subsp. ruderalis with 24 samples.

Results

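Young thallus of the liverwort Marchantia polymorpha was compared at 48 h and at 24 h after a move into constant light, which is the same phase of the former light-dark cycle 1 day apart. The comparison took the 3 libraries of 48 h against the 3 libraries of 24 h, 6 of the 24 libraries of the series. All plants were of the male accession Takaragaike-1 (Tak-1), carried no mutation named in the labels, and had been raised from gemmae, the clonal propagules of this liverwort, on agar medium, with 12 h of light and then 12 h of darkness each day, before the move. Constant light was thus shared by both groups, which differed in the time spent in it and in age by 1 day. Messenger RNA was counted per gene after selection of poly(A) RNA, and levels are given as CPM, counts scaled to a common library size, a scale that compares 1 gene between libraries and not genes of different length with each other. The labels do not give the hour of the light-dark cycle at which plants were moved, nor whether replicates were separate cultures. The p-values thus measure only the spread between libraries of the same time, estimated over all 24 libraries, and that spread may be technical. The tissue label is young thallus, while the extraction protocol speaks of gemmae.

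Plant clocks are loops of transcription factors that repress each other in turn. PSEUDO-RESPONSE REGULATOR (PRR) proteins and an evening complex of ELF3, ELF4 and LUX are repressors of such loops in Arabidopsis, and GIGANTEA and FKF1-type light receptors control the stability of clock and output proteins there. In constant conditions the loop runs on without outside cues, so a gene whose level depends on the clock alone, running with a period of 1 day and with no damping, would have the same level at both times. Time spent in constant light, growth and age also separate the times, and in bulk tissue fewer cells of a type and less RNA per cell cannot be told apart.

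The 24 h libraries held 34388490, 20814169 and 53044099 counts and those of 48 h 19316121, 19271096 and 27061982. Correlations of log2 CPM between libraries were 0.976 to 0.986 within 24 h and 0.956 to 0.979 within 48 h. In a principal component analysis of the 6 libraries, replicate 1 of 48 h stood apart on the first component (score 60.2, against −32.3 to 25.0 for the others, 40% of the variance), and replicate 2 of 48 h on the second (−52.0, against −10.5 to 34.9, 26.1%). A single gene, MpVg01240, took 0.898%, 1.94% and 7.22% of the counts at 24 h and 1.16%, 1.21% and 2.39% at 48 h; its level did not pass the test (log2 −1.17 ± 0.64, standard error (SE), edgeR adjusted p = 0.235). The chloroplast genes of the marker list (MpRBCS and the aldolase genes, 5 genes) summed to 4747 to 5800 CPM in the 6 libraries. The 3 genes found for its markers of sexual organs and sperm, 1 of them tested, summed to 0.473 to 1.12 CPM.

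The transcriptome did not return to the same state after 1 day. Of 14414 genes tested, 2232 (15.5%) differed between 48 h and 24 h at an adjusted p under 0.05 (edgeR quasi-likelihood test with Benjamini-Hochberg adjustment over all tested genes, used for every adjusted p given here unless another tool is named). Of these, 1191 (8.26%) were higher at 48 h and 1041 (7.22%) lower. Most of the changes were small. The median fold of the called genes was 1.45, with 212 genes higher and 80 lower by 2 fold or more, and the median log2 change of all tested genes was 0.003. Without replicate 2 of 48 h the counts were 629 higher and 509 lower. Leaving out replicate 1 of 24 h gave 752 genes higher, and leaving out replicate 2 of 24 h gave 777 higher and 668 lower. In either direction, 9.98%, 9.88% and 10.7% of the tested genes were called without replicate 1, 2 or 3 of 24 h. The shares were 14.3%, 7.78% and 12.7% without replicate 1, 2 or 3 of 48 h. These shares are the background for the counts within gene lists that are given below for the same settings. The 3 libraries of 48 h lay all above those of 24 h in 2441 genes (16.9%) and all below in 2536 (17.6%).

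With all 24 libraries, the day from 24 h to 48 h brought more calls than the same span at the other phases. The comparison of 54 h with 30 h called 1233 genes (8.55%), that of 60 h with 36 h 1224 (8.49%) and that of 66 h with 42 h 401 (2.78%). None of these pairs shares a library with 24 h or 48 h. Of the 2232 genes, 858 were called in the same direction at 54 h against 30 h (38.4% of the 2232 and 69.6% of the 1233), 577 at 60 h against 36 h (25.9% and 47.1%) and 130 at 66 h against 42 h (5.82% and 32.4%). In all, 1184 (53%) were called in that direction in none of the other pairs, but a missed threshold there does not show that a gene stayed level. Of the 2232 genes, 1555 (69.7%) changed with the same sign in all 3 other pairs. The counts of the other pairs moved by over 1.5 times with single libraries, reaching 497 to 1459 for 54 h against 30 h (lowest without replicate 1 of 54 h), 349 to 1690 for 60 h against 36 h (lowest without replicate 2 of 36 h), and 187 to 811 for 66 h against 42 h (lowest and highest without replicates 1 and 2 of 42 h). The comparison of 48 h with 24 h called 1138 genes without replicate 2 of 48 h. Its range thus overlaps those of 54 h against 30 h and 60 h against 36 h.

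At 24 h the called genes often stood at the edge of their range. Among the 1191 genes higher at 48 h, 955 (80.2%) had the lowest of their 8 time means at 24 h, and 143 (12.0%) their highest at 48 h. Among the 1041 genes lower at 48 h, 804 (77.2%) had their highest mean at 24 h and 135 (13.0%) their lowest at 48 h. Over all 14414 tested genes, 22.6% were lowest and 21.8% highest at 24 h, and 8.38% were lowest and 8.02% highest at 48 h. The call itself uses the 24 h and 48 h libraries, so these shares describe the called genes and carry no test.

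Of 8 tested clock genes 1 rose (12.5%, beside 8.26% of all tested genes), a share near the background. It was the GARP-family gene MpGARP7 (Mp4g21220), of the family to which LUX belongs in Arabidopsis. MpGARP7 stood at 38.6, 43.4 and 37.0 CPM at 24 h and at 51.7, 62 and 52.4 CPM at 48 h. All 3 libraries of 48 h were above those of 24 h, and the rise was 1.40 fold (log2 0.48 ± 0.10 SE, adjusted p = 0.00231). Its change did not differ from that at the other phases (difference 0.25 log2, adjusted p = 0.390).

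MpTOC1 (Mp3g09460), a pseudo-response regulator gene, was at 125, 116 and 127 CPM at 24 h and at 146, 167 and 167 CPM at 48 h. Its groups did not overlap either, but the log2 change of 0.38 ± 0.13 missed the threshold (adjusted p = 0.0503, and 0.0433 without replicate 1 of 48 h). MpTOC1 was called in 6 of 15 other settings, DESeq2 and limma-voom among the 15, with adjusted p from 0.0215 to 0.154. The other pseudo-response regulator gene, MpPRR (Mp2g16560), was at 65.1, 71.6 and 61.7 CPM at 24 h and at 62.9, 86.8 and 62.8 CPM at 48 h. These groups overlapped, with a log2 change of 0.10 ± 0.14 (adjusted p = 0.689). Across the series MpPRR ran in time means between 60.5 CPM (42 h) and 274 CPM (30 h), and both 24 h (66.1) and 48 h (70.9) lay near the lower end.

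The other 5 clock genes had log2 changes of 0.16 ± 0.12 for MpELF3, 0.20 ± 0.14 for MpELF4, 0.12 ± 0.07 for the GIGANTEA gene MpGI, 0.01 ± 0.09 for the FKF1-type gene MpFKF and 0.06 ± 0.14 for the MYB-related gene Mp1R-MYB11. Their adjusted p lay between 0.303 (MpGI) and 0.942 (MpFKF). In 4 of the 8 genes the libraries of 48 h lay all above those of 24 h (beside 16.9% of all tested genes), namely MpGARP7, MpTOC1, MpELF3 and MpGI. All 8 log2 changes were above 0, but for MpPRR and MpFKF the sign turned without replicate 2 of 48 h (−0.07 and −0.06), and for MpFKF also without replicate 1 of 24 h (−0.04).

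MpDET1 (Mp8g00970), the gene named in the series title, encodes the homologue of a protein that holds back light responses in darkness in Arabidopsis, in a complex with DDB1 and COP10. Its level was 133, 136 and 143 CPM at 24 h and 117, 125 and 145 CPM at 48 h. The groups overlapped and the log2 change was −0.09 ± 0.10 (adjusted p = 0.613). The values of its partners were −0.03 ± 0.08 for MpDDB1 and 0.13 ± 0.15 for MpCOP10, and those of the ubiquitin ligase genes MpCOP1 and MpSPA1 were 0.07 ± 0.09 and −0.03 ± 0.10. None of these passed the test.

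Of the 13 tested light signalling genes 1 fell (7.69%, beside 7.22% of all tested genes) and 12 were not called. The gene that fell was the B-box gene MpBBX1 (Mp5g05940). B-box proteins are zinc-finger transcription regulators, several of which act in light signalling in Arabidopsis. MpBBX1 fell from 44.7, 45 and 42.4 CPM at 24 h to 27.8, 35.4 and 35.9 CPM at 48 h, with all 48 h libraries below all of 24 h (log2 −0.41 ± 0.10, adjusted p = 0.00890). The fall was uncalled without replicate 1 of 48 h (adjusted p = 0.0543). Among the remaining B-box genes the log2 changes ran from 0.03 ± 0.20 for MpBBX6 to 0.29 ± 0.12 for MpBBX5. The basic helix-loop-helix gene MpBHLH6 stood at 214, 239 and 235 CPM and then at 263, 395 and 290 CPM, a log2 change of 0.46 ± 0.16 that missed the threshold (adjusted p = 0.0570, and 0.0289 without replicate 1 of 48 h).

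Of the photoreceptor genes, 0 of 4 passed the edgeR test, and 0 had an unadjusted p under 0.05. DESeq2 and limma-voom called 0 of them as well. The log2 changes were 0.14 ± 0.13 for the phytochrome gene MpPHY, 0.14 ± 0.11 for the cryptochrome gene MpCRY, 0.06 ± 0.10 for the phototropin gene MpPHOT and −0.04 ± 0.09 for the UV-B receptor gene MpUVR8.

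**Figure D1:**
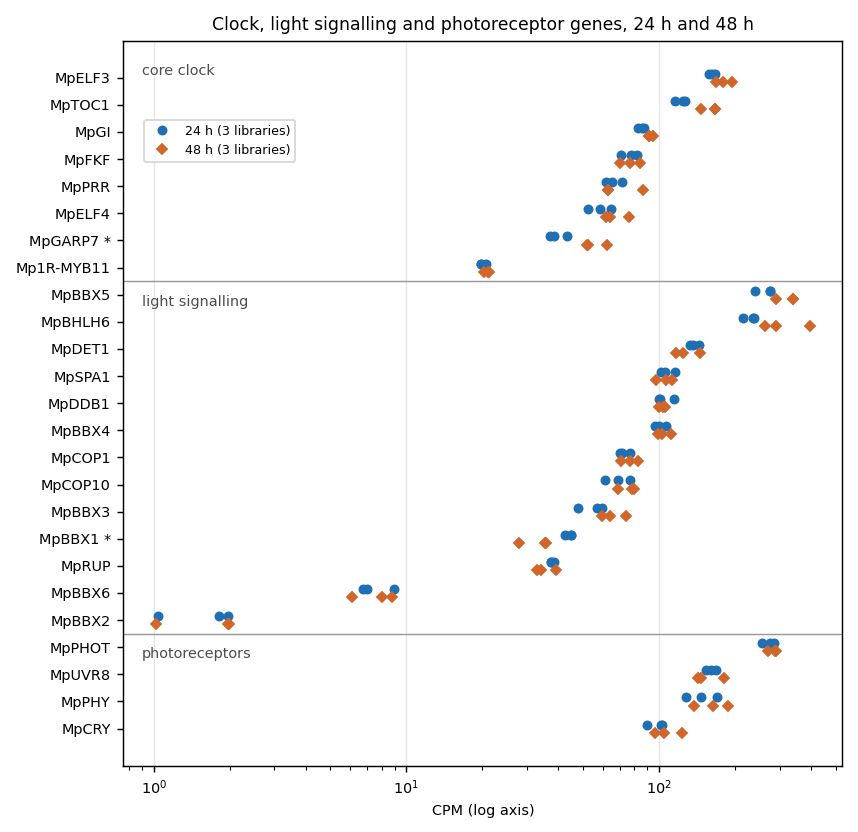
CPM (log axis) of the 8 clock, 13 light signalling and 4 photoreceptor genes in the 3 libraries of 24 h (circles) and the 3 of 48 h (diamonds). Stars mark the 2 called genes, MpGARP7 with all diamonds to the right of its circles and MpBBX1 with all diamonds to the left, while the points of most other genes overlap or lie close together.

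Some lipoxygenase genes rose. Lipoxygenases add oxygen to polyunsaturated fatty acids, the first step towards oxylipins, among them the jasmonate-type signal of this liverwort, dinor-OPDA. Of 17 tested genes of oxylipin synthesis and signalling, 4 rose (23.5%, beside 8.26% of all tested genes; median log2 of the list 0.19, against 0.003 for all tested genes), and 13 were not called. MpLOX14 (Mp8g12930) went from 94.8, 98.1 and 108 CPM to 252, 217 and 248 CPM, 2.38 fold (log2 1.25 ± 0.12, adjusted p = 3.01e-06). MpLOX10 (Mp8g09050) went from 22.7, 27.8 and 24.0 CPM to 46.2, 52 and 57.5 CPM, 2.1 fold (adjusted p = 3.94e-04). In both genes every library of 48 h lay well above every library of 24 h, but a rule that named both asked for no overlap.

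MpLOX16 (Mp2g16000) rose from 0.229, 0 and 0.260 CPM to 1.43, 1.79 and 2.25 CPM (adjusted p = 1.17e-04). MpLOX1 (Mp2g00660), at 3 to 6 CPM at 24 h and 6 to 13 CPM at 48 h, was called at log2 1.09 ± 0.36 (adjusted p = 0.0456). The MpLOX1 call ended without replicate 2 of 24 h (0.144), replicate 3 of 24 h (0.178) or replicate 3 of 48 h (0.263).

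For 3 of these lipoxygenase genes the change also differed from that at the other phases. The test set the change from 24 h to 48 h against the mean change of 54 h against 30 h, 60 h against 36 h and 66 h against 42 h. For MpLOX14 the changes at those phases were 0.15, −0.76 and −0.34 on the log2 scale, and the difference was 1.56 ± 0.14 (adjusted p = 1.85e-06). For MpLOX10 they were −0.13, −0.85 and −0.49, with a difference of 1.56 ± 0.20 (adjusted p = 2.51e-04), and for MpLOX16 0.19, −1.51 and −0.56, with a difference of 3.87 ± 0.52 (adjusted p = 3.08e-04). In time means, MpLOX14 was lowest at 24 h with 100.4 CPM, reached 617 CPM at 36 h, was back at 239 CPM by 48 h and stood at 416 CPM at 66 h. The span between high and low was thus narrower on the second day at both ends.

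Polyphenol oxidases are copper enzymes that oxidise phenolic compounds. Of 42 tested genes 2 rose (4.76%) and 4 fell (9.52%), near the 8.26% and 7.22% of all tested genes. Without replicate 2 of 48 h 1 rose and 2 fell, and 2 also fell when replicate 3 of 24 h was left out. MpPPO42 (Mp5g19980) rose from 278, 292 and 268 CPM to 443, 455 and 479 CPM (log2 0.72 ± 0.09, adjusted p = 2.55e-05), and its change differed from that at the other phases by 1.04 ± 0.10 (adjusted p = 8.83e-06). MpPPO37 (Mp6g17780) rose from 161 to 168 CPM at 24 h to 224 to 286 CPM at 48 h (log2 0.62 ± 0.15, adjusted p = 0.00872, and 0.0614 without replicate 2 of 48 h). MpPPO20 (Mp4g02130) went the other way, from 120, 118 and 106 CPM to 41.1, 28.9 and 46.8 CPM, a fall of 2.94 fold (log2 −1.56 ± 0.22, adjusted p = 7.86e-05). Among genes that carry a symbol, reach 10 CPM on average and do not overlap between the groups, it fell the most.

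Over all genes, the change from 24 h to 48 h differed from that of the other pairs in 212 of 14414 (1.47%), above in 136 and below in 76. Of the 212, 188 were also called between 48 h and 24 h. Without replicate 2 of 48 h the test called 55 genes above and 25 below. Leaving out replicate 1, 2 or 3 of 24 h gave 56, 80 or 81 genes above and 29, 48 or 39 below, and leaving out replicate 2 of 30 h gave 47 below.

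**Figure D2:**
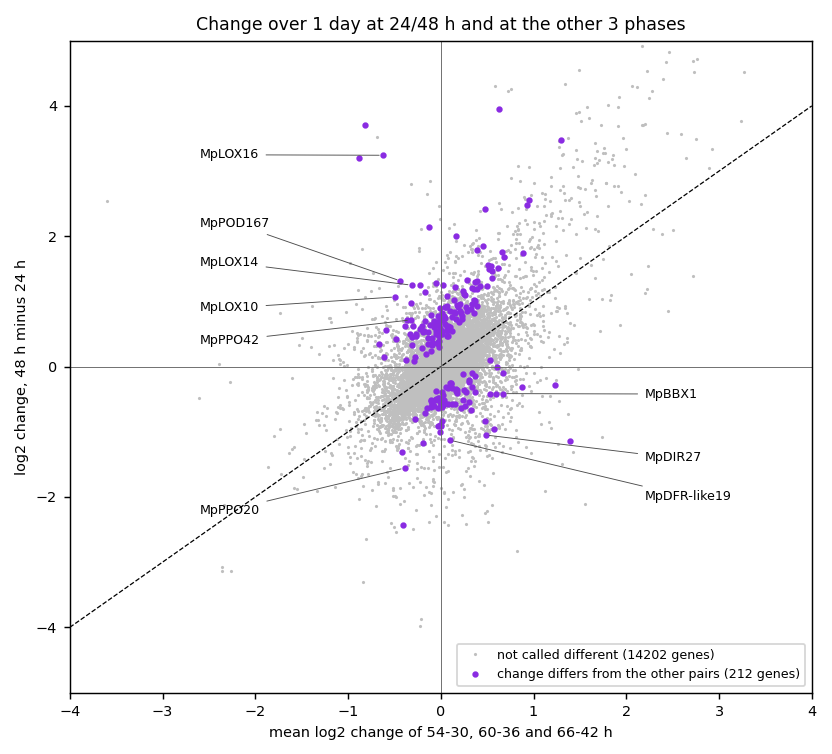
Log2 change from 24 h to 48 h (vertical axis) against the mean log2 change of the other 3 pairs of times 1 day apart (horizontal axis), 1 point per tested gene, with the 212 genes whose change differed in purple and equal changes on the dashed line. MpLOX14, MpLOX10, MpPPO42 and MpPOD167 lie above the line with a change below 0 at the other phases, MpBBX1 and MpDIR27 lie below it with a change above 0, and 27 genes fall outside the axes.

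MpBBX1 was among the genes of the second kind. It fell by 0.41 on the log2 scale between 24 h and 48 h and changed by −0.16 between 30 h and 54 h, but it rose by 1.1 between 36 h and 60 h (adjusted p = 1.65e-06) and by 1.08 between 42 h and 66 h (adjusted p = 2.32e-05). The difference was −1.09 ± 0.12 (adjusted p = 3.35e-05, and at most 7.54e-04 in the alternatives tried). Its time means were 44, 90.1, 32 and 9.59 CPM at 24, 30, 36 and 42 h and 33, 80.4, 68.4 and 20.3 CPM at 48, 54, 60 and 66 h. The level at 60 h was thus above the first-day value of that phase while the level at 48 h was below it.

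A pair of neighbouring genes resembling dihydroflavonol reductase, an enzyme of flavonoid synthesis, was high at 24 h alone. MpDFR-like19 (Mp8g08710) fell from 31.3, 22.5 and 24.8 CPM to 11.6, 10.8 and 13.6 CPM (log2 −1.13 ± 0.19, adjusted p = 4.19e-04), and its time means from 30 h on lay between 6.09 and 12.0 CPM. MpDFR-like18 (Mp8g08700) fell from 15.4 to 17.8 CPM to 7.88 to 9.12 CPM (log2 −1.01 ± 0.15, adjusted p = 1.19e-04), with later means of 6.61 to 8.43 CPM. Both changes differed from those of the other phases (−1.22 ± 0.22, adjusted p = 0.00435, and −1.00 ± 0.17, adjusted p = 0.00308). The genes are neighbours by identifier and may share reads.

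**Figure D3:**
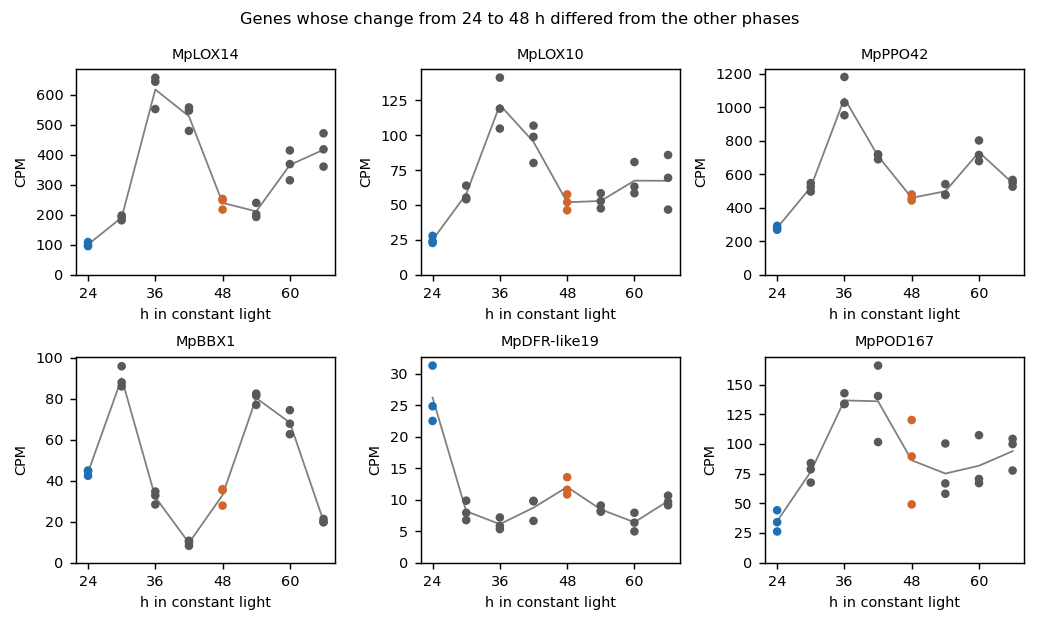
CPM of 6 genes in every library (points) and as time means (line) against hours in constant light, with 24 h in blue and 48 h in orange. MpLOX14, MpLOX10, MpPPO42 and MpPOD167 have their lowest means at 24 h and come back to a higher level at 48 h, MpBBX1 peaks at 30 h and at 54 h, and MpDFR-like19 is high at 24 h alone.

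Part of the autophagy list rose. Autophagy encloses cytoplasm in membranes and carries it to the vacuole for breakdown, and ATG8 proteins coat the growing membrane. All 21 genes of the list were tested and 9 rose (42.9%, beside 8.26% of all tested genes), with a median log2 change of 0.34; the other 12 were not called, and 11 of them had values above 0. MpATG8b (Mp5g05930) went from 60.1, 64.4 and 62.8 CPM to 103, 144 and 104 CPM, 1.87 fold (log2 0.91 ± 0.14, adjusted p = 2.36e-04). MpATG8a (Mp1g21590) went from 109, 97.6 and 107 CPM to 164, 198 and 170 CPM, 1.69 fold (adjusted p = 6.51e-04). For both genes replicate 2 of 48 h was highest, and the lowest library of 48 h was well above the highest of 24 h.

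MpATG18d (Mp3g05770) rose by 0.53 ± 0.13 (adjusted p = 0.0086, and 0.0539 without replicate 2 of 24 h). Other smaller rises included those of MpATG18a (0.50 ± 0.10, adjusted p = 0.00251), whose product binds membrane lipids, MpATG9 (0.43 ± 0.11, adjusted p = 0.0117), which encodes the membrane protein of the pathway, the kinase gene MpATG1 (0.42 ± 0.12, adjusted p = 0.0208) and the protease gene MpATG4 (0.26 ± 0.07, adjusted p = 0.0187), which processes ATG8. The autophagy changes were not called different from those at the other phases: MpATG8b changed by 0.71, 0.65 and 0.41 there (difference 0.31, adjusted p = 0.480). Leaving out replicate 2 of 48 h left 4 autophagy calls, and leaving out replicate 2 of 24 h left 5. Over all tested genes 1191 rose, with 629 in the first of these settings and 777 in the second.

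Of 5 HSP90 genes 4 fell. HSP90 proteins are chaperones that fold signalling proteins, and the clock protein ZEITLUPE is among their clients in Arabidopsis. Of 6 genes on the heat shock list 4 fell (66.7%, beside 7.22% of all tested genes), in every alternative tried as well. MpHSP90-1 (Mp1g26610) went from 905, 977 and 1027 CPM to 625, 569 and 623 CPM (log2 −0.68 ± 0.12, adjusted p = 6.80e-04). MpHSP90-4 (Mp5g15940) fell by 0.66 ± 0.12 (adjusted p = 8.08e-04), MpHSP90-2 (Mp2g04900) by 0.64 ± 0.15 (adjusted p = 0.00597) and MpHSP90-3 (Mp4g19750) by 0.86 ± 0.22 (adjusted p = 0.0101). In each of these 4 called genes the 3 libraries of 48 h were below the 3 of 24 h, as in 17.6% of all tested genes. The heat shock factor gene MpHSF1 had 17.9 to 18.6 CPM at 24 h and 18.8 to 21.7 CPM at 48 h (0.16 ± 0.16, adjusted p = 0.547), and the weakly expressed MpHSP90-5 had 1.07 to 2.74 CPM in the 6 libraries. The changes of the 4 HSP90 genes at the other phases had a mean of −0.30 to −0.55 and were not called different (adjusted p from 0.233 to 0.912).

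Some proton pump genes fell. The plasma membrane H+-ATPases export protons, which drives nutrient uptake and acidifies the cell wall. Of 17 tested genes 6 fell (35.3%, beside 7.22% of all tested genes) and 11 were not called. The list median was −0.49, and 15 of the 17 values were below 0. MpHA5 (Mp3g12380) fell from 76.7, 70.3 and 69.5 CPM to 32.0, 31.1 and 40.6 CPM, 2.08 fold (log2 −1.06 ± 0.20, adjusted p = 0.00119). MpHA2 (Mp3g21600) fell from 237, 231 and 212 CPM to 124, 115 and 155 CPM (−0.79 ± 0.16, adjusted p = 0.00238), and MpHA8 (Mp4g06820) from 139, 142 and 137 CPM to 109, 61.4 and 89.4 CPM (−0.68 ± 0.14, adjusted p = 0.00222). MpHA3 (Mp4g02970) had 1035, 1056 and 1211 CPM and then 1075, 1058 and 999.5 CPM, without a call (−0.08 ± 0.12, adjusted p = 0.725).

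MpHA5 had means of 72.2, 63.4, 61.9 and 41.5 CPM on the first day and 34.6, 39.6, 24.6 and 22 CPM on the second, in the order of the times. The mean at 54 h was above that at 48 h, through replicate 3 of 54 h at 56.9 CPM. Its change from 24 h to 48 h did not differ from that at the other phases (−0.08, adjusted p = 0.948). Of the 6 proton pump calls 3 were left without replicate 1 or replicate 2 of 24 h, and also without replicate 1 or replicate 2 of 48 h. Several proton pump genes are neighbours by identifier (MpHA5 and MpHA14, for example) and may share reads.

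Calls in phenolic metabolism went in both directions. Class III peroxidases are secreted enzymes that couple phenolics and modify cell walls. Of 119 tested genes 17 fell (14.3%, beside 7.22% of all tested genes) and 6 rose (5.04%, beside 8.26%). MpPOD68 (Mp5g03300) fell from 5.65, 5.72 and 5.53 CPM to 1.99, 1.94 and 2.36 CPM (log2 −1.42 ± 0.23, adjusted p = 2.95e-04), and fell by 1.39, 1.63 and 1.41 at the other phases as well. MpPOD149 (Mp7g09310) fell from 32.7 to 46.8 CPM to 15.8 to 23.3 CPM (−0.98 ± 0.20, adjusted p = 0.00193). MpPOD144 (Mp7g05770) rose from 10.1, 13.0 and 11.8 CPM to 22.5, 22.8 and 20.8 CPM (0.92 ± 0.13, adjusted p = 7.86e-05). MpPOD167 (Mp8g09590) rose from 44.1, 34.1 and 26.2 CPM to 49.1, 89.5 and 120 CPM (1.31 ± 0.27, adjusted p = 0.00226), with replicate 1 of 48 h just above the highest 24 h library. The number of peroxidase genes that fell was 6 without replicate 2 of 48 h and 10 when replicate 1 of 24 h was left out. Over all tested genes 1041 fell, and 509 without replicate 2 of 48 h.

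Among 37 tested genes of phenylpropanoid and flavonoid synthesis 6 fell (16.2%, beside 7.22% of all tested genes) and 2 rose (5.41%, beside 8.26%). The chalcone synthase family gene MpPKS/CHS2 (Mp2g07060) was at 301, 276 and 273 CPM at 24 h and at 192, 118 and 134 CPM at 48 h (log2 −0.94 ± 0.32, adjusted p = 0.0484). MpF3H (Mp1g26540), named for flavanone 3-hydroxylase, was at 278, 261 and 256 CPM and then at 224, 110 and 138 CPM (−0.75 ± 0.26, adjusted p = 0.0495). Both genes were lowest in replicate 2 of 48 h. MpHCT (Mp7g12690), named for a hydroxycinnamoyl transferase of the phenylpropanoid route, rose from 141, 164 and 175 CPM to 233, 328 and 210 CPM (0.68 ± 0.17, adjusted p = 0.00946). These calls were lost on leaving out single libraries. Leaving out either replicate 1 of 24 h or replicate 2 of 48 h left edgeR 0 calls among the 37 genes, and leaving out replicate 2 of 24 h left 1 that fell and 1 that rose. The adjusted p of MpPKS/CHS2 became 0.188 or 0.129 without replicate 2 or 3 of 48 h, and 0.118, 0.0901 or 0.0891 when replicate 1, 2 or 3 of 24 h was left out. That of MpHCT was 0.054 without replicate 1 of 24 h and became 0.0988 when replicate 2 of 48 h was left out.

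The dirigent genes, whose products steer the coupling of phenolic radicals, split into 6 that rose (15%, beside 8.26% of all tested genes) and 7 that fell (17.5%, beside 7.22%) of 40 tested. MpDIR27 (Mp5g00590) fell from 36.3, 21.8 and 31.6 CPM to 20.1, 11.9 and 11.5 CPM (log2 −1.05 ± 0.30, adjusted p = 0.0223), and its change differed from the other phases by −1.53 ± 0.36 (adjusted p = 0.0310). The fall was uncalled without replicate 1 or 3 of 24 h (0.1 and 0.0641), and also when replicate 2 or 3 of 48 h was left out (0.110 and 0.0925). Of the 6 that rose, 5 stand beside each other by identifier, from MpDIR48 (Mp3g24140) to MpDIR64 (Mp3g24210), and they owe most of their level at 48 h to 1 library. MpDIR48 had 1.63, 7.36 and 7.95 CPM at 24 h and 73.6, 8.25 and 15.4 CPM at 48 h, and MpDIR47 (Mp3g24150) 1.18, 7.06 and 7.55 CPM and then 82.9, 8.09 and 16 CPM. At the other phases these genes changed by a mean of 1.486 and 1.475 log2, and the differences were not called (adjusted p = 0.757 and 0.705). MpDIR47 had 8.79, 11.5 and 9.49 CPM at 30 h and 46.6, 74.3 and 23.5 CPM at 54 h. Its libraries overlapped between 36 h and 60 h and between 42 h and 66 h. Without replicate 1 of 48 h the adjusted p of the rise from 24 h was 0.387 for MpDIR48 and 0.371 for MpDIR47. Without that library 1 dirigent gene was called higher. Leaving out replicate 1, 2 or 3 of 24 h left 1, 3 or 0. The number that fell became 1, 4 or 3 when replicate 1, 2 or 3 of 24 h was left out, and 0 or 3 when replicate 2 or 3 of 48 h was.

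The same library carried high levels of desiccation genes. LEA-like proteins and dehydrins protect cells during drying and are induced by abscisic acid in many land plants. The LEA-like and dehydrin genes (63 tested of 72) summed to 1041, 1234 and 1034 CPM at 24 h and to 2265, 1234 and 1368 CPM at 48 h. In 47 of the 63 (74.6%) replicate 1 of 48 h was the highest of the 6 libraries, as it was in 14.3% of all tested genes. MpLEAL1 (Mp4g09300) had 2.49, 31.6 and 2.68 CPM and then 290.5, 3.57 and 53.6 CPM, so the groups overlapped (adjusted p = 0.106). MpDHN1 (Mp6g07540) was near 0 in most libraries and at 41.7 CPM in replicate 1 of 48 h (adjusted p = 0.108). The gemma cup gene MpGCAM1 (Mp6g04830) was also highest there, at 26.0 CPM against 3.42 to 12.4 CPM in the other 5 libraries. Of the 10 tested gemma cup genes, though, 5 had values above 0 and 5 below. Between 24 h and 48 h 0 rose and 1 fell (10%, beside 7.22% of all tested genes). That was MpKAR (Mp5g06550), from a mean of 60.6 to 49.6 CPM (log2 −0.29 ± 0.10, adjusted p = 0.0490), a call lost in 12 of 15 other settings. The part of the desiccation genes and of MpGCAM1 in the dirigent result was not tested.

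Of the 72 tested genes of the abscisic acid and desiccation list 9 rose (12.5%, beside 8.26% of all tested genes), and the list median was 1.29. Among the 9, MpABA4 (Mp5g19490), named for a gene of abscisic acid synthesis, did not rest on that library. It went from 16.1, 13.8 and 14.3 CPM to 23.8, 23.2 and 18.6 CPM (log2 0.57 ± 0.12, adjusted p = 0.00258). MpLEA-like49 (Mp6g11340) rose from 4.04, 2.24 and 3.3 CPM to 9.97, 6.83 and 5.43 CPM (1.2 ± 0.30, adjusted p = 0.00834, but 0.0509 without replicate 1 of 48 h and 0.0514 when replicate 2 of 24 h was left out). The number that rose became 3, 6 or 3 when replicate 1, 2 or 3 of 24 h was left out, 5 when replicate 1 or 3 of 48 h was, and 2 with replicate 3 of 24 h and replicate 1 of 48 h both left out, a choice made after the data were seen.

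**Figure D4:**
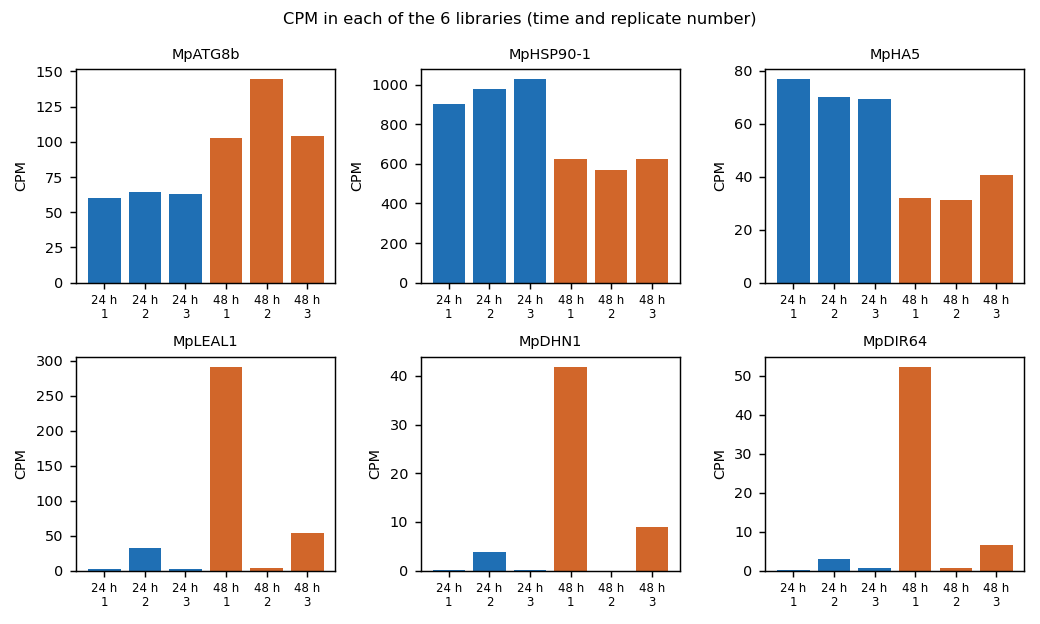
CPM of 6 genes in each of the 6 libraries, 24 h in blue and 48 h in orange, with the replicate number under each bar. MpATG8b is higher and MpHSP90-1 and MpHA5 are lower in all 3 libraries of 48 h, while MpLEAL1, MpDHN1 and MpDIR64 are high in replicate 1 of 48 h and much lower in replicate 2.

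Several families of regulators had called members. Of 9 tested NAC genes, a plant family of transcription factors, 4 rose (44.4%, beside 8.26% of all tested genes, the background for the other families here too). MpNAC1 (Mp2g07720) went from 4.90, 4.13 and 4.95 CPM to 6.29, 11.8 and 11.2 CPM (log2 1.07 ± 0.20, adjusted p = 0.00103) and MpNAC7 (Mp6g02620) from 23.3, 19.1 and 23.1 CPM to 29.9, 34.5 and 32.5 CPM (0.56 ± 0.13, adjusted p = 0.00473). The number of NAC genes that rose was 2 without replicate 2 of 24 h, replicate 2 of 48 h or replicate 3 of 48 h. Of 37 basic helix-loop-helix genes 5 rose (13.5%), the most by MpBHLH21 (Mp3g11900), from 15.7 to 17.5 CPM to 27.9 to 34.7 CPM (0.89 ± 0.13, adjusted p = 9.09e-05); 2 of them rose when replicate 1 or 3 of 24 h or replicate 2 of 48 h was left out. Of 13 bZIP genes 3 rose (23.1%), with MpBZIP9 (Mp6g03920) at 25.1, 29.9 and 31.1 CPM and then 55.3, 87.6 and 60.6 CPM (1.24 ± 0.15, adjusted p = 2.57e-05); 1 bZIP gene rose without replicate 2 of 48 h. Of 14 R2R3-MYB genes 3 rose (21.4%) and 1 fell (7.14%, beside 7.22% of all tested genes), a fall not called without replicate 1 or 2 of 24 h or replicate 2 of 48 h. MpR2R3-MYB4 (Mp3g02830) rose from 69.3 to 74.6 CPM to 102 to 115 CPM (0.61 ± 0.08, adjusted p = 6.12e-05).

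Protein phosphatases 2C, which reverse phosphorylation by kinases, had 4 genes up (21.1%, beside 8.26% of all tested genes) and 2 down (10.5%, beside 7.22%) of 19. Of the falls 1 was left when any single library of the 6 other than replicate 3 of 48 h was left out. MpPP2C_F3 (Mp4g14730) rose from 2.21, 2.79 and 1.42 CPM to 9.15, 9.98 and 5.97 CPM, 3.99 fold (log2 2.00 ± 0.34, adjusted p = 4.91e-04). Receptor-like kinases, which sense signals at the cell surface, had 10 genes up (12.8%, beside 8.26% of all tested genes) and 1 down (1.28%, beside 7.22%) of 78. MpRLK-Pelle_WAK_LRK10L-9 (Mp5g09530) rose from 12.7 to 13.1 CPM to 17.5 to 22.6 CPM (0.67 ± 0.12, adjusted p = 6.58e-04). The count of kinases that rose became 4, 3 or 6 when replicate 1, 2 or 3 of 24 h was left out, and 4 or 6 when replicate 2 or 3 of 48 h was. The call of the kinase that fell ended on leaving out replicate 2 or 3 of 24 h or replicate 1 or 2 of 48 h.

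**Figure D5:**
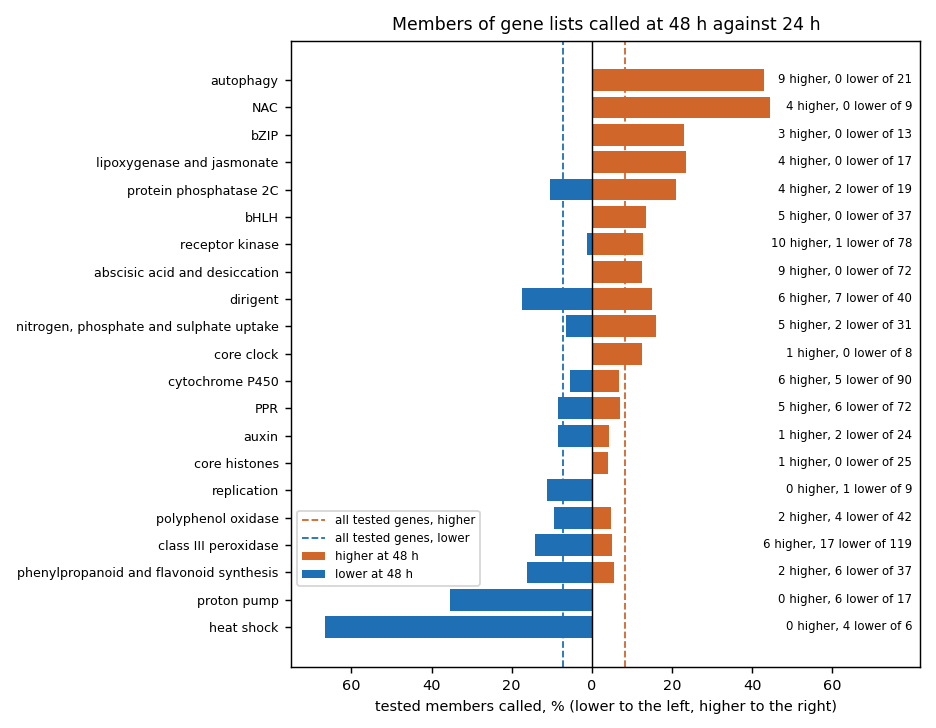
Share of the tested members of 21 gene lists called higher (orange, to the right) and lower (blue, to the left) at 48 h against 24 h, in percent, with the shares among all tested genes (8.26% and 7.22%) as dashed lines. Autophagy and NAC reach furthest to the right and heat shock and proton pump genes furthest to the left, and lists such as PPR and cytochrome P450 lie near the dashed lines.

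Calls among chloroplast and nutrient genes went in both directions. MpRBCS (Mp4g09890), for the small subunit of Rubisco, rose from 151, 164 and 137 CPM to 289, 286 and 218 CPM (log2 0.81 ± 0.13, adjusted p = 3.37e-04). It was the only call among 5 Calvin cycle genes (20%, beside 8.26% of all tested genes that rose). The ammonium transporter gene MpAMT1.2 (Mp6g08310) rose from 66.2 to 79.7 CPM to 95.9 to 116 CPM (0.52 ± 0.10, adjusted p = 0.00200). MpNPF21 (Mp5g04910), of a family that carries nitrate, peptides and hormones, fell from 126, 100 and 106 CPM to 55.7, 43.6 and 69.4 CPM (−0.98 ± 0.15, adjusted p = 2.27e-04). In the uptake list as a whole 5 of 31 genes rose (16.1%) and 2 fell (6.45%), beside 8.26% and 7.22% of all tested genes, with 3 rising without replicate 2 of 24 h or replicate 2 of 48 h, and 1 falling without replicate 1 of 24 h or replicate 3 of 48 h. The carotenoid hydroxylase family genes MpCYP97A35 (Mp4g11500) and MpCYP97B28 (Mp2g25040) rose by 0.51 ± 0.08 (adjusted p = 2.28e-04) and 0.48 ± 0.09 (adjusted p = 8.10e-04). Of 90 tested cytochrome P450 genes, these 2 among them, 6 rose (6.67%) and 5 fell (5.56%). Both shares lay below the 8.26% and 7.22% of all tested genes. The number that fell became 1 or 2 on leaving out any single library of the 6 other than replicate 3 of 48 h.

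Genes of DNA replication and chromatin had values mostly below 0 with few calls. Of 9 replication genes, 8 had values below 0 (list median −0.37, against 0.003 for all tested genes). Called lower was 1 of them (11.1%, beside 7.22% of all tested genes), the helicase gene MpMCM2 (Mp3g00130). It went from 25.6, 29.2 and 26.4 CPM to 20.0, 16.8 and 16.6 CPM (log2 −0.61 ± 0.20, adjusted p = 0.0430). The MpMCM2 call ended on leaving out any single library of the 6 other than replicate 1 of 48 h, with adjusted p of 0.071, 0.123 and 0.0836 for replicates 1, 2 and 3 of 24 h and of 0.142 and 0.120 for replicates 2 and 3 of 48 h. Of 25 core histone genes 21 had values below 0 (median −0.31). The only called one (4%, beside 8.26% of all tested genes that rose), MpH2B.1 (Mp7g18140), rose from 69.0 to 72.6 CPM to 87.2 to 108 CPM (0.44 ± 0.12, adjusted p = 0.0125, but 0.0945 without replicate 2 of 48 h). Of 7 genes used as references in expression studies, 1 fell (14.3%, beside 7.22% of all tested genes). This was MpAPT (Mp3g25140), from 131, 135 and 134 CPM to 103, 93.4 and 109 CPM (−0.39 ± 0.12, adjusted p = 0.0261). Its adjusted p was 0.0527 to 0.130 on leaving out single libraries other than replicate 3 of 48 h, highest without replicate 2 of 48 h.

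Some of the widest changes were in other families or in genes without a symbol. Mp3g24880 rose from 1.6, 1.59 and 1.36 CPM to 22.3, 32.4 and 15.2 CPM, 15.4 fold (log2 3.94 ± 0.43, adjusted p = 9.56e-06), and its time means reached 160 CPM at 42 h and 230 CPM at 66 h. Mp5g03550 rose from 12.8, 32.5 and 10.6 CPM to 207, 109 and 139 CPM (3.06 ± 0.45, adjusted p = 1.30e-04), and Mp2g15440 fell from 30.4, 26.7 and 25.4 CPM to 10.1, 4.62 and 8.83 CPM (−1.81 ± 0.34, adjusted p = 0.00114). None of the 3 overlapped between the groups, as the rule that named them required. MpSOD4 (Mp6g09390), a superoxide dismutase gene, rose from 15, 18.6 and 16.7 CPM to 53.1, 37.8 and 77.5 CPM (1.75 ± 0.38, adjusted p = 0.00323). MpGH38.1 (Mp4g13950), of a glycoside hydrolase family that holds mannosidases, rose from 56.5, 56.8 and 61 CPM to 118, 184 and 133 CPM (1.32 ± 0.14, adjusted p = 9.56e-06).

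Genes that swung at other phases were counted as well. They were taken as genes called from 30 h to 42 h and again, in the same direction, from 54 h to 66 h. These contrasts leave out 24 h and 48 h, but the model's estimate of spread comes from all 24 libraries, and passing 2 tests favours abundant genes of low spread. Of 477 such genes 240 (50.3%) were called between 48 h and 24 h, 124 higher and 116 lower, beside 15.5% of all tested genes, a share given as a description with no test. Their median absolute log2 change between 24 h and 48 h was 0.36, against 0.23 over all tested genes. Their median change from 30 h to 42 h was 0.65. The genes were chosen by that contrast, which raises its value, so its size cannot be set against that of 24 h to 48 h. The number of such genes was 309 without replicate 3 of 54 h and 304 when replicate 1 of 66 h was left out, with 138 and 142 of them called.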

How the data were processed

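Per the labels' protocols, stranded TruSeq libraries were made from poly(A) RNA. The authors deposited 1 table of raw counts per gene (20574 genes, 24 libraries with 14929708 to 59194999 counts). The sources used here do not give aligner, genome build or the strand setting of the counting, so overlapping, antisense and near-identical genes can share reads. Symbols came from a RefSeq table (assembly MpTak2_v7.1), joined on the digits of the locus number. Of the identifiers 17641 matched and 3091 had a symbol, and a gene renumbered between annotations would carry a wrong one.

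In R 4.3.3, edgeR 4.0.16 kept genes by filterByExpr (minimum count 10), which left 14414 and set aside 6160. TMM factors were 0.932 to 1.10. A quasi-likelihood model with 1 mean per time was fitted to all 24 libraries, and p-values were adjusted by Benjamini-Hochberg over all tested genes with a threshold of 0.05. CPM used TMM library sizes. Where a gene has log2 and SE, both come from the fit. The code was tested on simulated data. Alternatives were DESeq2 1.42.0, limma-voom (limma 3.58.1), other filters and scalings, the 6 libraries alone, a replicate block and each library left out.

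The members and lists were chosen with earlier results of these data known, and 4 kinds of wrongly matched symbols were taken out of the lists by name after the values were seen. Named genes were the 12 largest rises and 12 largest falls with a symbol, 10 CPM and no overlap between groups, all tested clock, light signalling and photoreceptor genes, the 4 called members with the smallest p of every other list, the 3 largest called rises and falls with or without a symbol (10 CPM over the 6 libraries, no overlap), the 5 largest called differences from the other phases in each direction (symbol, 10 CPM over the 24 libraries), and the gene with the largest share of counts. MpF3H, MpHA3, MpHSF1, MpHSP90-5, MpATG1, MpATG4, MpATG9, MpLEAL1, MpDHN1, MpDIR64 and MpGCAM1 fall outside this rule and were chosen after their values were seen.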

Additional observations from a re-analysis of the deposited data

Results flagged for a closer look

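Each gene below stood out because its change from 24 h to 48 h differed from the mean change at the other 3 phases (edgeR quasi-likelihood test of the difference, Benjamini-Hochberg adjusted p under 0.05 over all 14414 genes). Differences are on the log2 scale and positive where the gene rose more, or fell less, from 24 h to 48 h than at the other phases. No explanation was tested for any of them.

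Among the genes named here, the largest positive differences were 3.87 for the lipoxygenase gene MpLOX16, 3.32 for Mp3g24880, 1.75 for the peroxidase gene MpPOD167, 1.56 for MpLOX14 and 1.56 for MpLOX10. They were followed by 1.41 for MpCYP814-like, 1.16 for the lipid transfer family gene MpLTP-like65, 1.04 for the polyphenol oxidase gene MpPPO42 and 1.01 for the glycoside hydrolase gene MpGH51.1. MpLTP-like65 was itself not called between 48 h and 24 h (adjusted p = 0.0786).

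Differences under 1 were 0.93 for MpGH38.1, 0.92 for MpPPO37, 0.88 for the glutathione transferase gene MpGST34, 0.88 for MpPOD144, 0.83 for MpKFB01_20 and 0.82 for MpBZIP9. The smallest were 0.54 and 0.50 for the cytochrome P450 genes MpCYP97A35 and MpCYP97B28 and 0.50 for the phosphatase gene MpPP2C_K2.

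Negative differences were −1.53 for the dirigent gene MpDIR27, −1.22 for MpDFR-like19, −1.17 for MpPPO20, −1.09 for the B-box gene MpBBX1, −1.00 for MpDFR-like18 and −0.66 for MpPCS. Of these 24 genes 14 were called in every alternative tried. The call was lost in 21 of 32 settings for MpKFB01_20 (adjusted p up to 0.227) and in 15 of 32 for MpPP2C_K2 (up to 0.196). Both values were highest without replicate 2 of 48 h. Without that library the adjusted p was 0.138 for MpCYP814-like, 0.137 for MpDIR27, 0.109 for MpBZIP9 and 0.0963 for MpPPO20. It was 0.0593 for MpCYP97B28, 0.0521 for MpPPO37 and 0.0514 for MpLTP-like65. Without replicate 1 of 24 h the adjusted p was 0.123 for MpDIR27, 0.11 for MpCYP814-like, 0.102 for MpBZIP9 and 0.0944 for MpLTP-like65. It was 0.0589 for MpPPO20 and MpCYP97B28 and 0.0514 for MpPCS. MpDIR27 was also uncalled without replicate 3 of 24 h (0.0839) or replicate 3 of 48 h (0.0942).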

How the results depend on the processing

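The alternatives moved counts more than directions. Of the 112 named genes called between 48 h and 24 h, 59 were called in all 15 other settings, and of the 25 not called 22 in none. The 2232 calls became 2221 with DESeq2 size factors, 1986 without a filter, 2298 with a stricter one, 2648 with DESeq2, 2214 with limma-voom, 1898 from the 6 libraries alone and 1566 with replicate 3 of 24 h and replicate 1 of 48 h both left out, a setting chosen after seeing the data; they shared 2175, 1980, 2196, 2198, 2092, 1666 and 1434 genes with the 2232. Leaving out 1 library gave 629 to 1115 genes higher, 509 to 981 lower, 55 to 150 above and 25 to 92 below the other phases, 497 to 1459, 349 to 1690 and 187 to 811 calls at 54 h against 30 h, 60 h against 36 h and 66 h against 42 h, and 304 to 505 swinging genes with 138 to 254 called. DESeq2 called 250 genes above and 149 below the other phases and 680 at 66 h against 42 h, and without both libraries 80 were above and 41 below. The causes were not tested, beyond the fewer samples of some settings.

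Signs turned only in genes without a call. With limma-voom MpBBX2 was at −0.037. Without both libraries MpBBX6 was at −0.16, MpSPA1 at 0.07, MpDDB1 at 0.023, MpDET1 at 0.007, MpUVR8 at 0.026 and MpVg01240 at 0.29. Leaving out 1 library gave −0.056 to 0.078 for MpFKF, −0.072 to 0.18 for MpPRR, −0.085 to 0.16 for MpBBX6, −0.18 to 0.29 for MpBBX2, −0.083 to 0.019 for MpSPA1, −0.068 to 0.028 for MpDDB1, −0.15 to 0.026 for MpUVR8 and −1.63 to 0.11 for MpVg01240. Replicate numbers do not pair the libraries: deviations of same-numbered libraries of 24 h and 48 h correlated at −0.22, −0.31 and 0.17, and 9 of all 24 libraries correlated best with their own number. With a replicate block 2175 genes were called, 2091 of them shared. Genes of low counts such as MpLOX16 are the least precise at these depths.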

Other observations

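Peroxisome genes were not among the lists and were looked at after the values were seen. Of 17 tested PEX genes, whose products build peroxisomes and import their enzymes, 4 rose between 24 h and 48 h (beside 8.26% of all tested genes), with a list median of 0.18 on the log2 scale against 0.003 for all tested genes. MpPEX11b (Mp1g26710), of the family that divides peroxisomes, went from a mean of 185 to 273 CPM (log2 0.56 ± 0.15, edgeR adjusted p = 0.0115), and MpPEX7 (Mp8g16810), an import receptor gene, from 31.8 to 41.6 CPM (0.39 ± 0.07, adjusted p = 9.18e-04). The other called members were MpPEX13 (Mp4g02320, 0.33 ± 0.09) and MpPEX11a (Mp1g28560, 0.39 ± 0.12).

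Other large families were counted in the same way, beside 8.26% of all tested genes that rose and 7.22% that fell. Of 110 tested glycoside hydrolase genes 10 rose and 9 fell, of 80 glycosyltransferase genes 1 rose and 4 fell, and of 30 expansin genes, which loosen cell walls, 4 rose and 1 fell. Of 72 pentatricopeptide repeat genes, which act on organelle RNA, 5 rose (6.94%) and 6 fell (8.33%), near those shares. The number that rose became 2, 2 or 3 when replicate 1, 2 or 3 of 24 h was left out, and 1 or 2 when replicate 2 or 3 of 48 h was. The number that fell became 2 or 3 without replicate 2 or 3 of 24 h, and 1 without replicate 2 of 48 h.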
